A study of Mus musculus with 6 samples.

Results

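The genes of voltage-gated calcium channels were followed in the dorsal hippocampus of mice in which the long non-coding RNA Snhg11 was knocked down with an antisense oligonucleotide (ASO). The 10 genes described are from 55401 genes listed in the count files. They were chosen by name, with earlier results of these data known. They are the pore-forming α1 genes Cacna1a, Cacna1b, Cacna1c, Cacna1d, Cacna1e and Cacna1g, the α2δ genes Cacna2d1 and Cacna2d3, the β gene Cacnb4 and the γ gene Cacng8. All 10 passed the filter on low counts, as did 19969 genes in all. The 6 samples came from WT mice, littermates of the Ts65Dn line, of 4 months of age. Of these, 3 received 50 µg per hemisphere of Control-ASO, a scrambled gapmer of the same length, and 3 received the same amount of Snhg11-ASO, injected bilaterally into the dorsal dentate gyrus. The tissue was taken 3 days later. The dissected piece was the whole dorsal part of the hippocampus, so the RNA holds cells beyond the injected dentate gyrus. Fewer cells of a type and less RNA per cell cannot be told apart in such tissue.

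A voltage-gated calcium channel opens when the membrane depolarises and lets calcium into the neuron. The α1 protein forms the pore and sets the channel type. P/Q-type and N-type channels trigger transmitter release at presynaptic terminals, R-type channels act in spines and terminals, L-type channels couple activity to gene expression, and T-type channels open near rest and favour burst firing. The α2δ proteins sit on the outer face and bring channels to the membrane, and β proteins bind the pore on the cytoplasmic side. Several γ proteins, γ8 among them, act mainly as partners of AMPA receptors.

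Reverse-strand counts over genes summed to 28951250 to 43997537 per sample, and each group held 3 animals. The targeted transcript Snhg11 was measured at 551, 436 and 209 library-scaled counts (CPM, counts per 1e6) in the Control-ASO samples and at 139, 65.4 and 69.4 CPM under Snhg11-ASO, with no overlap. Snhg11-ASO replicate 1 stood apart, with a Spearman correlation across genes of 0.955 to 0.959 with every other sample, while the other samples correlated with each other at 0.979 to 0.991. The Y-linked gene Ddx3y was present in every sample (62.5 to 94.7 CPM) and Xist was at most 0.184 CPM, so all 6 samples were from males.

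Of the 10 genes, 9 were lower and 1 was higher under Snhg11-ASO than under Control-ASO, while 48.3% of all genes tested were lower. The median log2 fold change was -0.32, with a range from -0.64 (Cacna2d1) to 0.15 (Cacng8), whereas the median over all 19969 genes tested was 0.00967. No single gene of the 10 passed the threshold of 0.05 on the adjusted p of the quasi-likelihood test of edgeR (Benjamini-Hochberg). Nor did any other gene, so the share called over all genes was 0%, with 1619 genes at an unadjusted p under 0.05, while DESeq2 called 258 genes and limma-voom 0. Without Snhg11-ASO replicate 1, edgeR called 2 genes and DESeq2 347, none of the 10 in edgeR and Cacna2d1 in DESeq2. At an unadjusted p under 0.05, Cacna2d1 and Cacna2d3 were lower, or 2 of 10, against 4.43% of all genes. For Cacna2d1, Cacna2d3 and Cacnb4 every knockdown sample lay below every control, or 3 of 10 genes against 7.70% of all genes. These 3 genes are long, and the share was 22.1% of genes spanning 200 to 500 kb and 51.1% above 500 kb. Control-ASO replicate 1 weighed on the median: without it the median log2 fold change of the 10 genes was -0.0878. It was -0.203 without Snhg11-ASO replicate 3, -0.314 without Snhg11-ASO replicate 1, and between -0.356 and -0.35 without any other sample.

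**Figure D1:**
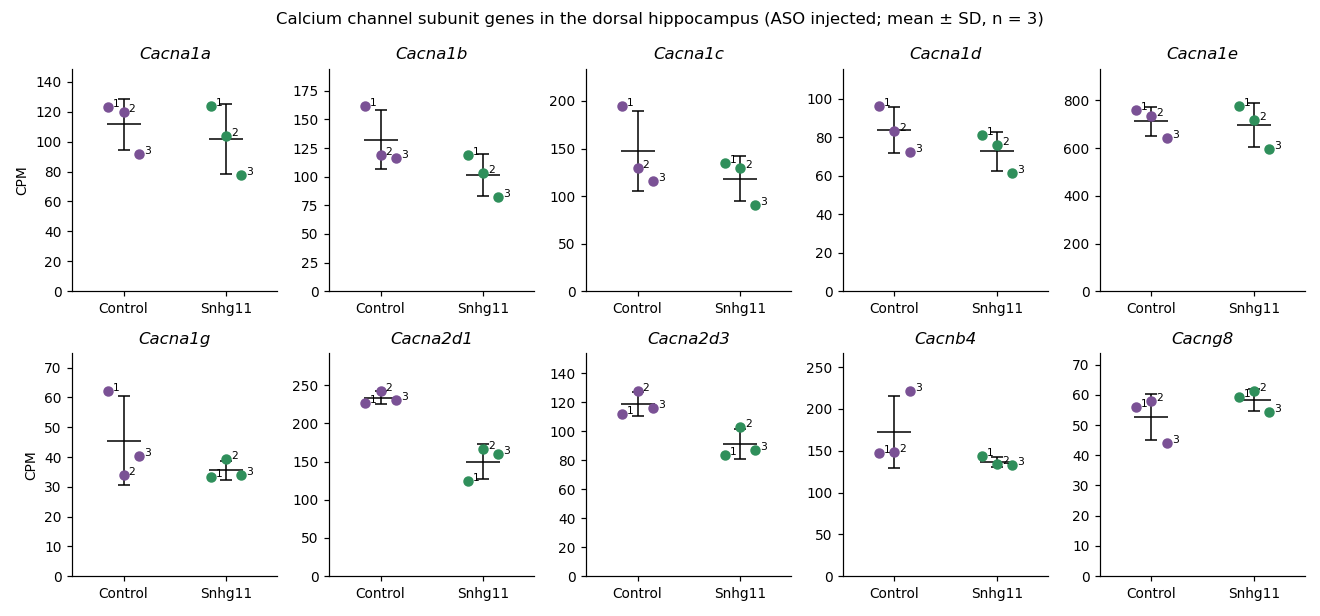
CPM (vertical axis, from 0) of the 10 calcium channel genes in each of the 3 Control-ASO and 3 Snhg11-ASO samples, labelled by replicate number, with mean and SD. The groups are apart for Cacna2d1, Cacna2d3 and Cacnb4 and overlap for the other genes; Control-ASO replicate 1 is the highest control sample for the 6 α1 genes and Control-ASO replicate 3 is the high sample of Cacnb4.

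Of the 4 α2δ genes, Cacna2d1 and Cacna2d3 were lower with the groups apart, and Cacna2d2 and Cacna2d4 overlapped between groups. Their products share a domain with a metal ion adhesion site, and upstream of it Cacna2d1 and Cacna2d2 encode a run of arginines known for binding gabapentin. The 75 coding bases that span both features are shown to place the measured α2δ genes beside each other, with the codons of the arginines at the start and of the metal site at the end in capitals. They were read from GENCODE M21 transcripts on GRCm38 (mm10).
Cacna2d1: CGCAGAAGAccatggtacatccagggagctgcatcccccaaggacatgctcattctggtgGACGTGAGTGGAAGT
Cacna2d2: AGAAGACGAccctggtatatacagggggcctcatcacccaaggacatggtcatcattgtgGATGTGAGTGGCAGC
Cacna2d3: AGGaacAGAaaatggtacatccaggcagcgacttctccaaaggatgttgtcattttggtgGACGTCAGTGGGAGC
Cacna2d4: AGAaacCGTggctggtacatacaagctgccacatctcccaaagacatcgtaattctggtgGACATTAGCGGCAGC
In Cacna2d1-201 the stretch covers codons 239 to 263 in exons 8 to 10 of 39, on the plus strand of chromosome 5 between 16264314 and 16267385. In Cacna2d3-201 it covers codons 242 to 266 in exons 7 and 8 of 38, on the minus strand of chromosome 14 between 29346971 and 29347135. The start of the stretch holds 3 arginine codons in Cacna2d1 and Cacna2d2 and 2 in Cacna2d3 and Cacna2d4.

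Cacna2d1 (ENSMUSG00000040118), which encodes α2δ-1, lies on the plus strand of chromosome 5 from 15934691 to 16374511. It was measured at 227, 243 and 231 CPM under Control-ASO and at 124, 166 and 160 CPM under Snhg11-ASO. The controls lay close together, and every knockdown sample was well below them, with replicate 1 the lowest. The mean went from 234 ± 8.59 to 150 ± 22.7 CPM (SD, n = 3 each), or 64.4% of control, which is more than the spread within either group. The log2 fold change was -0.64 (standard error, SE, 0.12, unadjusted p = 0.00142), with an adjusted p of 0.377 in edgeR, and the exact two-sided permutation test gave p = 0.1, the smallest that 3 against 3 samples allow. In DESeq2 Cacna2d1 was called, at an adjusted p of 0.00489, the only gene of the 10 to do so, and 0.796% of all genes were called lower in that fit. Without Snhg11-ASO replicate 1 the log2 fold change was -0.52, and the adjusted p was 3.56e-07 in DESeq2. Of 22 other ways of processing, all gave a lower level, from -0.71 to -0.45, and 4 called it, all of them DESeq2 fits.

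**Figure D2:**
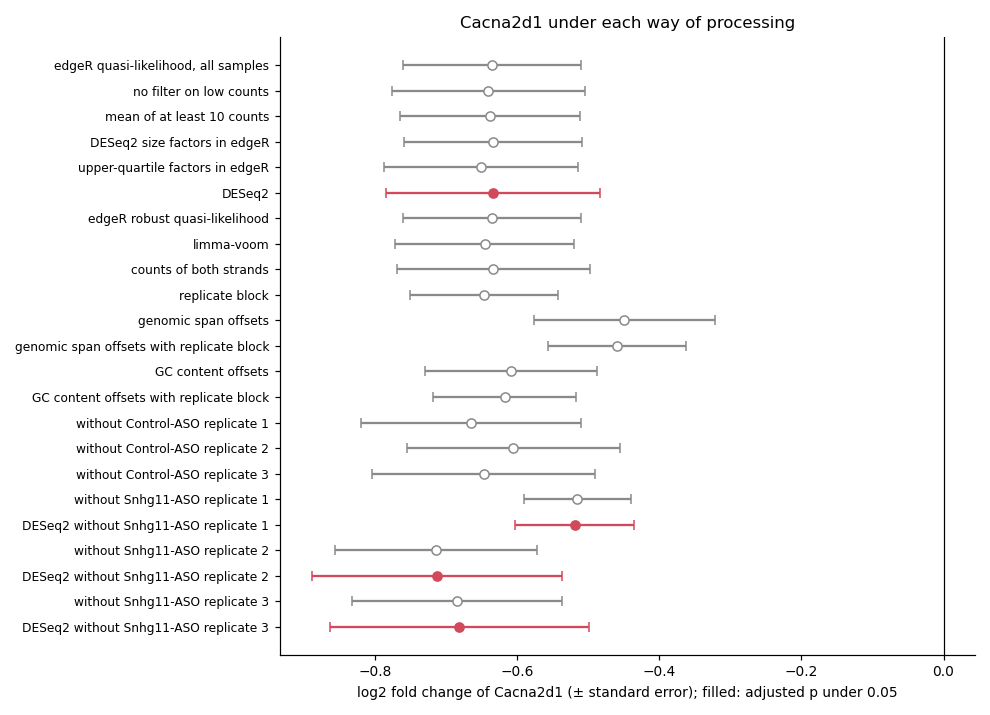
Log2 fold change of Cacna2d1, Snhg11-ASO against Control-ASO, with its standard error (horizontal axis) under the edgeR fit and 22 alternatives (rows). All lie between -0.71 and -0.45; the filled red points, which have an adjusted p under 0.05, are the 4 DESeq2 fits.

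The count of spliced exons was not the sole readout of the Cacna2d1 locus. Intron 3 of Cacna2d1-201 (chromosome 5, 16025866 to 16162992, 137.1 kb) contains Gm43490 (ENSMUSG00000105526), an annotation still to be experimentally tested, on the same strand from 16107129 to 16109780 and touching no exon of Cacna2d1. Counts of Gm43490 were 239, 208 and 253 under Control-ASO and 110, 184 and 220 under Snhg11-ASO, or 8.12, 6.18 and 7.51 against 2.88, 4.40 and 5.04 CPM. This intronic segment was thus lower in every knockdown sample than in any control, like Cacna2d1 itself. Its log2 fold change was -0.82 (SE 0.25), the unadjusted p was 0.0131 and the adjusted p 0.527 in edgeR, and it remained negative without each sample in turn (-1.0 to -0.62). Counts of such an intronic gene cannot be told apart from intronic reads of the host on that strand. Antisense counts over the exons of Cacna2d1 were 0.0641% to 0.115% of its counts on both strands. Over the 10 genes the antisense share was at most 2.30% (Cacna1c), and the antisense levels overlapped between groups for each.

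Cacna2d3 (ENSMUSG00000021991), which encodes α2δ-3, a subunit with a role in presynaptic organisation, lies on the minus strand of chromosome 14 from 28904943 to 29721864. It was measured at 112, 128 and 116 CPM under Control-ASO and at 83.3, 103 and 87.1 CPM under Snhg11-ASO. The groups were apart, by less than for Cacna2d1. The mean went from 118 ± 8.63 to 91.1 ± 10.3 CPM (SD, n = 3 each), a log2 fold change of -0.38 (SE 0.11). Its unadjusted p was 0.0108 and its adjusted p 0.507 in edgeR, and DESeq2 gave an adjusted p of 0.170. The ratio of Cacna2d1 to Cacna2d3 within each library, which does not depend on library scaling, was 2.03, 1.90 and 2.0 in the controls and 1.49, 1.62 and 1.84 in the knockdown samples. Cacna2d1 was thus lower also relative to its paralog, without overlap. Relative to Cacna1e, the most abundant pore gene, Cacna2d1 stood at 0.298, 0.332 and 0.360 in the controls and 0.160, 0.232 and 0.269 in the knockdown samples, again without overlap. Relative to Cacnb4 it overlapped, at 1.54, 1.63 and 1.04 in the controls and 0.865, 1.24 and 1.21 in the knockdown samples. The remaining α2δ genes were at lower levels. Cacna2d2 was measured at 18.0, 14.8 and 20.2 against 13.4, 15.7 and 14.3 CPM (log2 fold change -0.29, adjusted p = 0.679 in edgeR), and Cacna2d4 did not exceed 4.09 CPM in any sample.

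The 6 α1 genes were all lower on average, with a median log2 fold change of -0.26. Their groups overlapped on the CPM scale used here, and none had an unadjusted p under 0.05. Without Control-ASO replicate 1 that median was -0.07 with 5 of 6 lower, and without Snhg11-ASO replicate 3 it was -0.13 with 4 of 6 lower. The labels do not pair the samples, and pairing them by replicate number rests on these same values alone. Taken as such pairs, Cacna1b, Cacna1c and Cacna1d were lower in 3 of 3 pairs, and Cacna1a, Cacna1e and Cacna1g in 2 of 3. The share of all genes lower in 3 of 3 pairs was not computed, so these counts have no background beside them. With the replicate number as a block Cacna1b had an unadjusted p of 0.00933 in edgeR, Cacna1c of 0.0573 and Cacna1d of 0.0582, with adjusted p of 0.484, 0.597 and 0.598. In that fit 1715 of 19969 genes had an unadjusted p under 0.05. High-voltage-activated α1 proteins carry a β-binding site in the loop after the first domain, which is how β4 and its relatives reach the pore, and T-type α1 proteins lack it. The 54 coding bases of this site are printed because they divide the α1 genes by their dependence on Cacnb4 and its relatives. Capitals mark the codons of the residues searched for, and the sequences were taken from GENCODE M21 on GRCm38 as above.
Cacna1a: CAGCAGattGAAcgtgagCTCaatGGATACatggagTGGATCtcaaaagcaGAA
Cacna1b: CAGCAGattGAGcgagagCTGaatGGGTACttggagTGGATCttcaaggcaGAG
Cacna1c: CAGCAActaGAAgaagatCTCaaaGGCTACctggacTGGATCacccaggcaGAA
Cacna1d: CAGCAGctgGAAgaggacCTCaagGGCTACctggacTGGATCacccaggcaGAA
Cacna1e: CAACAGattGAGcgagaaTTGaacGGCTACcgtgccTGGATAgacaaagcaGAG
The search also found the site in Cacna1s and Cacna1f, and did not find these residues in the coding sequence of Cacna1g, nor in those of its relatives Cacna1h and Cacna1i. The 5 genes printed had log2 fold changes from -0.38 to -0.03, Cacna1s had 0.03, and Cacna1f did not pass the filter. Of the genes without the site, Cacna1g had -0.35, Cacna1i -0.28 and Cacna1h 0.28, and no test between the sets was run.

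Cacna1b (ENSMUSG00000004113), the N-type pore gene, lies on the minus strand of chromosome 2 from 24603887 to 24763152. It was measured at 162, 119 and 116 CPM under Control-ASO and at 119, 103 and 82.5 CPM under Snhg11-ASO. Only the highest knockdown sample reached the controls. The log2 fold change was -0.38 (SE 0.18), with an unadjusted p of 0.0732 and an adjusted p of 0.647 in edgeR. Without Control-ASO replicate 1 it was -0.22. With the block and an offset for genomic span (the length of the gene on the genome) together the unadjusted p was 0.0174 and the adjusted p 0.574.

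Cacna1a (ENSMUSG00000034656), the P/Q-type pore gene, lies on the plus strand of chromosome 8 from 84388440 to 84640246. Its level was 123, 120 and 91.9 CPM under Control-ASO and 124, 104 and 77.5 CPM under Snhg11-ASO. The highest sample of all was a knockdown sample, and the log2 fold change of -0.13 (SE 0.19, adjusted p = 0.874 in edgeR) turned to 0.03 without Snhg11-ASO replicate 3 and was -0.30 without Snhg11-ASO replicate 1. Cacna1e (ENSMUSG00000004110), the R-type pore gene, lies on the minus strand of chromosome 1 from 154390731 to 154884501. Its level was 760, 733 and 643 CPM under Control-ASO and 778, 716 and 596 CPM under Snhg11-ASO. These groups overlapped throughout, and the mean of 697 ± 92.5 CPM was 97.9% of the control mean of 712 ± 61.1 CPM (SD, n = 3 each). Its log2 fold change was -0.03 (SE 0.13, adjusted p = 0.963 in edgeR), and its sign turned without Control-ASO replicate 1 (0.0088) or Snhg11-ASO replicate 3 (0.0692).

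The L-type pore genes were, like Cacna1b, lower on average with overlapping groups. Cacna1c (ENSMUSG00000051331), on the minus strand of chromosome 6 from 118587240 to 119196418, was measured at 195, 130 and 116 CPM under Control-ASO and at 135, 129 and 91.1 CPM under Snhg11-ASO. Control-ASO replicate 1 was far above the other samples. The log2 fold change of -0.31 (SE 0.23, adjusted p = 0.759 in edgeR) became -0.07 without it. Cacna1d (ENSMUSG00000015968), on the minus strand of chromosome 14 from 30039939 to 30491455, was measured at 96.5, 83.1 and 72.6 CPM under Control-ASO and at 81.2, 75.9 and 61.5 CPM under Snhg11-ASO. Its groups overlapped, with a log2 fold change of -0.21 (SE 0.15, adjusted p = 0.748 in edgeR). A pseudogene within an intron of Cacna1c on its strand, Gm18981, was at 2.48, 1.87 and 1.75 against 1.76, 1.82 and 1.67 CPM, with overlapping groups (log2 fold change -0.22, adjusted p = 0.835 in edgeR).

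Cacna1g (ENSMUSG00000020866), a T-type pore gene, lies on the minus strand of chromosome 11 from 94408391 to 94474198. Its level was 62.3, 33.9 and 40.4 CPM under Control-ASO and 33.4, 39.3 and 34.1 CPM under Snhg11-ASO. A single control sample was high and the remaining controls lay at or near the knockdown level. The log2 fold change was accordingly -0.35 (SE 0.22, adjusted p = 0.720 in edgeR) with all samples and -0.07 without Control-ASO replicate 1.

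The make-up of the pore genes was then compared within each library, as the CPM per kb of merged exon of each α1 gene in percent of the sum over all 10 α1 genes of the genome. R-type Cacna1e held the largest share in every sample, 32.8 ± 2.41% in Control-ASO and 34.5 ± 1.18% in Snhg11-ASO samples (SD, n = 3 each), with overlap. Cacna1b took 16.3%, 14.1% and 15.7% of the controls and 12.9%, 12.6% and 12.5% of the knockdown samples, and was thus a smaller part without overlap. Cacna1d went from 7.70 ± 0.0633% to 7.20 ± 0.232%, also without overlap. The gene that held a larger part was Cacna1h, a T-type gene outside the 10. Its share was 14.4%, 14.9% and 11.9% in the controls and 19.6%, 17.1% and 17.1% in the knockdown samples. In CPM its groups overlapped, at 141, 124 and 86.5 against 178, 137 and 111 CPM. By type, the T-type genes together made up 24.8 ± 1.14% and 27.6 ± 0.766% without overlap, the L-type genes 15.7 ± 1.01% and 14.2 ± 0.594% without overlap, and the P/Q-, N- and R-type genes 59.5 ± 2.13% and 58.2 ± 0.255% with overlap. Within the T-type class the higher share was that of Cacna1h, while Cacna1g (5.14 ± 1.11% and 4.45 ± 0.791%) and Cacna1i (5.91 ± 0.657% and 5.21 ± 0.342%) had lower means with overlap. Shares that sum to a whole are not independent of each other, and no test was run on them. The L-type genes Cacna1c and Cacna1d span 609 and 452 kb on the genome. The T-type genes Cacna1h, Cacna1g and Cacna1i span 59.5, 65.8 and 111 kb. Genomic span, which moved with the difference between the groups over all genes, was not corrected for in the shares. Its part in them was not tested.

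**Figure D3:**
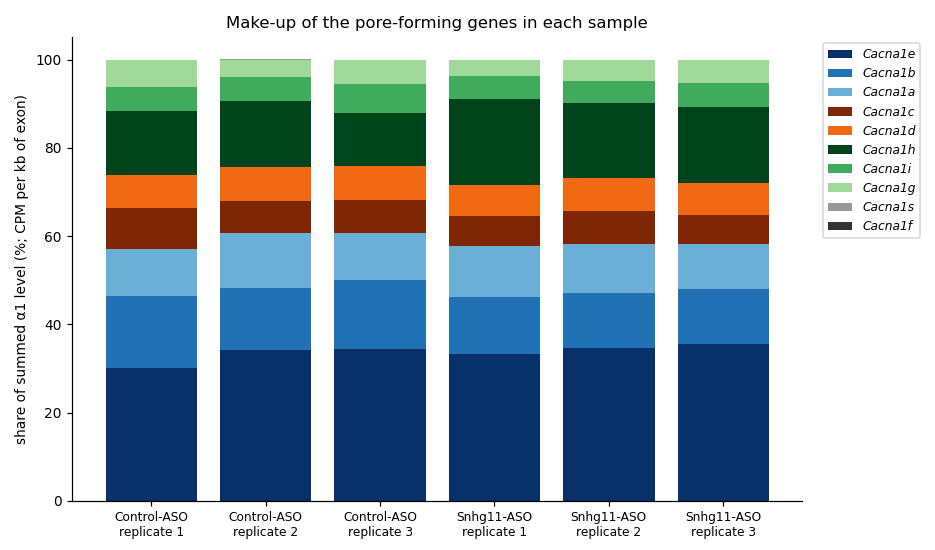
Share of each of the 10 α1 genes (percent of their summed CPM per kb of exon, stacked bars from 0) in each sample. Cacna1b (mid blue) is a smaller and Cacna1h (dark green) a larger part of each Snhg11-ASO sample than of any Control-ASO sample; Cacna1s and Cacna1f, at most 0.120% and 0.0264%, are too small to see.

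Cacnb4 (ENSMUSG00000017412), whose loss causes the seizures and ataxia of the lethargic mouse, lies on the minus strand of chromosome 2 from 52428320 to 52676831. Its level was 147, 149 and 222 CPM under Control-ASO and 144, 134 and 133 CPM under Snhg11-ASO. All knockdown samples lay below all controls, but the gap between the groups was small and Control-ASO replicate 3 was far above the rest. Its log2 fold change of -0.34 (SE 0.17; in edgeR, unadjusted p = 0.0857 and adjusted p = 0.663) was -0.12 without that sample, and the groups overlapped once a trend with GC content was removed. Cacng8 (ENSMUSG00000053395), the gene of γ8, an AMPA receptor partner abundant in the hippocampus, lies on the plus strand of chromosome 7 from 3390683 to 3415648. It was the only gene of the 10 with a higher mean in Snhg11-ASO samples, at 56.0, 57.8 and 43.9 CPM in the controls and 59.2, 61.4 and 54.4 CPM in the knockdown samples. Its groups overlapped, and the log2 fold change of 0.15 (SE 0.13, adjusted p = 0.775 in edgeR) was 0.03 without Control-ASO replicate 3.

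Levels between genes were compared per kb of merged exon in the Control-ASO samples. Cacna1e was the highest of the 10 at 28.2 ± 2.42 CPM per kb, above the range of every other one. Cacng8 (22.4 ± 3.21), Cacnb4 (19.3 ± 4.73) and Cacna2d1 (18.8 ± 0.692 CPM per kb) followed with overlapping ranges. Cacna2d3 (13.6 ± 0.989) and Cacna1b (13.3 ± 2.59 CPM per kb) formed the next level and overlapped with each other but not with Cacna2d1. Cacna1a was at 9.76 ± 1.49, Cacna1c at 6.94 ± 1.98, Cacna1d at 6.66 ± 0.951 and Cacna1g at 4.49 ± 1.47 CPM per kb (SD, n = 3 each), and each of these 4 overlapped with the next. In Snhg11-ASO samples Cacna2d1 was at 12.1 ± 1.82 and Cacnb4 at 15.3 ± 0.682 CPM per kb, and these ranges no longer overlapped.

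Of the 16 other genes of the channel family, 14 passed the filter, and Cacna1f and Cacng1 did not, with at most 6 and 3 counts. Among the 14, 9 were lower and 5 higher, with a median log2 fold change of -0.13 and 0 called in edgeR, limma-voom or DESeq2. At an unadjusted p under 0.05 Cacng7 was lower and Cacng5 higher, or 1 of 14 in each direction, against 4.43% and 3.68% of all genes. Cacng5, whose product modulates AMPA receptors, was measured at 10.8, 13.5 and 7.42 CPM under Control-ASO and at 24.5, 18.4 and 14.4 CPM under Snhg11-ASO, the largest difference of the family at 0.86 on the log2 scale (SE 0.27, adjusted p = 0.543 in edgeR). Cacng7, also an AMPA receptor partner, was measured at 29.8, 26.8 and 32.7 CPM under Control-ASO and at 24.5, 22.3 and 18.9 CPM under Snhg11-ASO, a difference of -0.44 on the log2 scale (SE 0.14, adjusted p = 0.535 in edgeR). The groups were apart for both genes. Cacng5 was at 0.64 and Cacng7 at -0.53 without Snhg11-ASO replicate 1, and in that fit by DESeq2 Cacng7 passed the threshold (adjusted p = 0.0283). Cacng2, the gene of stargazin, was also lower without overlap, by a narrow margin (26.3, 27.4 and 24.6 against 23.7, 24.6 and 22.6 CPM), by a log2 fold change of only -0.15 with an unadjusted p of 0.195 in edgeR. In all, 2 of the 14 were lower without overlap, against 7.70% of all genes, and 1 was higher without overlap. The log2 fold changes of the others were 0.28 (Cacna1h), -0.28 (Cacna1i), 0.03 (Cacna1s), -0.29 (Cacna2d2), -0.08 (Cacna2d4), 0.17 (Cacnb1), -0.17 (Cacnb2), -0.11 (Cacnb3), -0.20 (Cacng3), -0.15 (Cacng4) and 0.60 (Cacng6), with adjusted p from 0.618 to 0.990 in edgeR. Within the β genes Cacnb4 was therefore the lowest of 4 relative to control, and within the α2δ genes Cacna2d1.

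**Figure D4:**
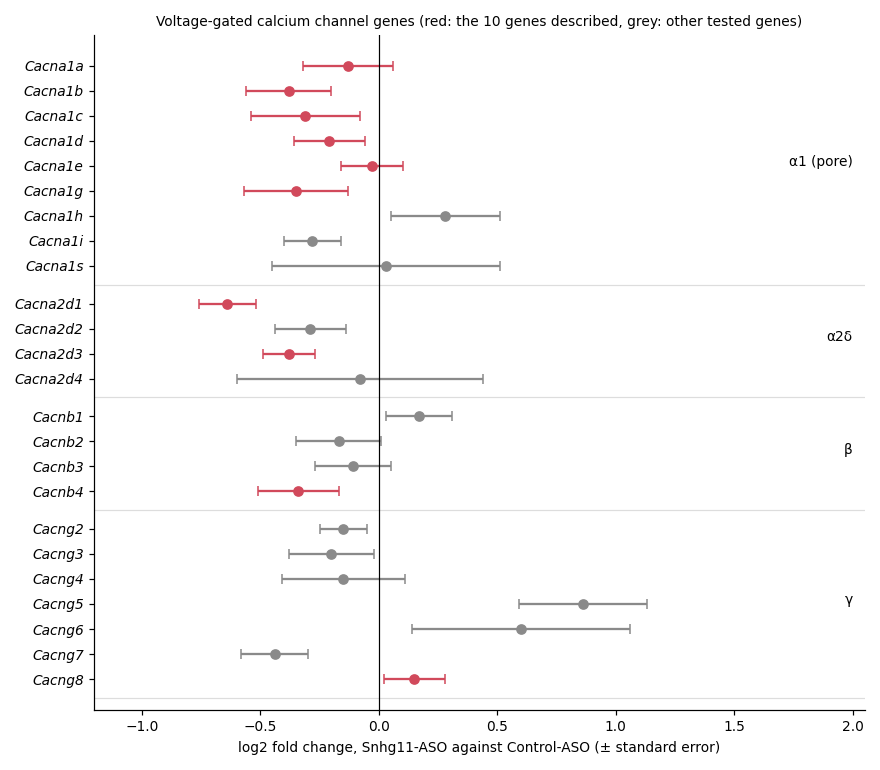
Log2 fold change, Snhg11-ASO against Control-ASO, with its standard error (horizontal axis) for the 24 channel genes that passed the filter, by subunit class; red marks the 10 genes described and grey the others. Cacna2d1 has the lowest value (-0.64) and Cacng5 the highest (0.86).

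Among 22 genes whose products bind or regulate calcium channels, 13 were lower and 9 higher, with a median log2 fold change of -0.05 and 0 called in edgeR, limma-voom or DESeq2. At an unadjusted p under 0.05, 5 of 22 were lower and 1 was higher, against 4.43% lower and 3.68% higher over all genes. Without Control-ASO replicate 1 or without Control-ASO replicate 3 this count of 6 was 3. The lower ones included all 4 Rims genes, which encode the RIM protein family, and Cabp1, a calcium sensor that modulates L- and P/Q-type channels. Rims1 was measured at 184, 190 and 182 against 140, 169 and 133 CPM, and Rims2 at 119, 106 and 130 against 94.6, 92.9 and 105 CPM, in Control-ASO and Snhg11-ASO samples. Their log2 fold changes were -0.33 (SE 0.11) and -0.28 (SE 0.11), with adjusted p of 0.550 and 0.578 in edgeR. Rims3 (-0.76, adjusted p = 0.530), Rims4 (-0.33, adjusted p = 0.595) and Cabp1 (-0.34, adjusted p = 0.507) were lower without overlap as well. In all, 6 of the 22 were lower without overlap, Akap5 among them, against 7.70% of all genes. Gem and Rem2, or 2 of the 22, were higher without overlap. In DESeq2 without Snhg11-ASO replicate 2, Rims1 (adjusted p = 0.0323) and Gem (adjusted p = 0.0499) passed the threshold. Rims3 had a high control, replicate 3 at 69.2 CPM, and was at -0.45 without it. Gem, a small GTPase that binds β subunits, was the higher gene, but its value rested on Snhg11-ASO replicate 1 (17.4 CPM, against at most 2.54 CPM in the other samples): the log2 fold change was 1.86 with and 0.30 without that sample.

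Calcium channel genes are long, and genomic span, the genomic distance between the ends of a gene, moved with the difference between the groups over all genes. The median log2 fold change was 0.0115 for genes of up to 20 kb, 0.035 from 20 to 65 kb, 0.00173 from 65 to 200 kb, -0.126 from 200 to 500 kb (763 genes) and -0.37 above 500 kb (223 genes). Of the 10 genes, 7 span over 200 kb, and all 7 were lower, with a median of -0.31. The median of the 986 genes tested that span over 200 kb was -0.173. Of all genes tested, 70.1% were lower from 200 to 500 kb and 90.1% above 500 kb, against 48.3% over all spans. The 3 shorter genes of the 10 were Cacna1b (159 kb), Cacna1g (65.8 kb) and Cacng8 (25 kb). Against genes of like span, most of the long genes were near the middle. Cacna1a (252 kb) had 49.4% of its class below it, Cacna2d3 (817 kb) 46.6% Cacna1c (609 kb) 58.7% and Cacna1d (452 kb) 38.4%, whereas Cacna1e (494 kb) had 66.4% below it and so lay on the less reduced side. Cacnb4 (249 kb) had 23.7% and Cacna2d1 (440 kb) 7.21% of the genes of 200 to 500 kb below them. In the class of 65 to 200 kb, Cacna1b had 10.8% and Cacna1g 12% of genes below it. Over 500 kb, an unadjusted p under 0.05 with a lower level was found for 50.2% of genes, and from 200 to 500 kb for 16.9%. Groups apart with a lower level were found for 51.1% and 22.1% of genes in these classes. These are the shares to set beside Cacna2d3 (over 500 kb) and beside Cacna2d1 and Cacnb4 (200 to 500 kb).

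When each sample's trend with span was removed by an offset in the fit, the median of the 10 genes was -0.0963, and 8 were lower. Cacna2d1 remained at -0.45 (SE 0.13, unadjusted p = 0.00980, adjusted p = 0.615 in edgeR), the only one of the 10 with an unadjusted p under 0.05 or with the Snhg11-ASO samples all below the controls. Cacna2d3 went to -0.11, Cacnb4 to -0.22, Cacna1c to -0.08, Cacna1d to -0.02, Cacna1a to -0.02 and Cacna1e to 0.17, while Cacna1b (-0.31), Cacna1g (-0.35) and Cacng8 (0.13) kept nearly the values they had without it. Gm43490, itself short but lying within the span of Cacna2d1, was at -0.79. Its offset was set by its own short span and not by that of Cacna2d1. This value therefore cannot show whether Gm43490 follows the trend with the span of its host. Of the Rims genes, the long ones Rims1 and Rims2 went to -0.13 and -0.08, and Rims3 (-0.77) and Rims4 (-0.33) did not move.

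**Figure D5:**
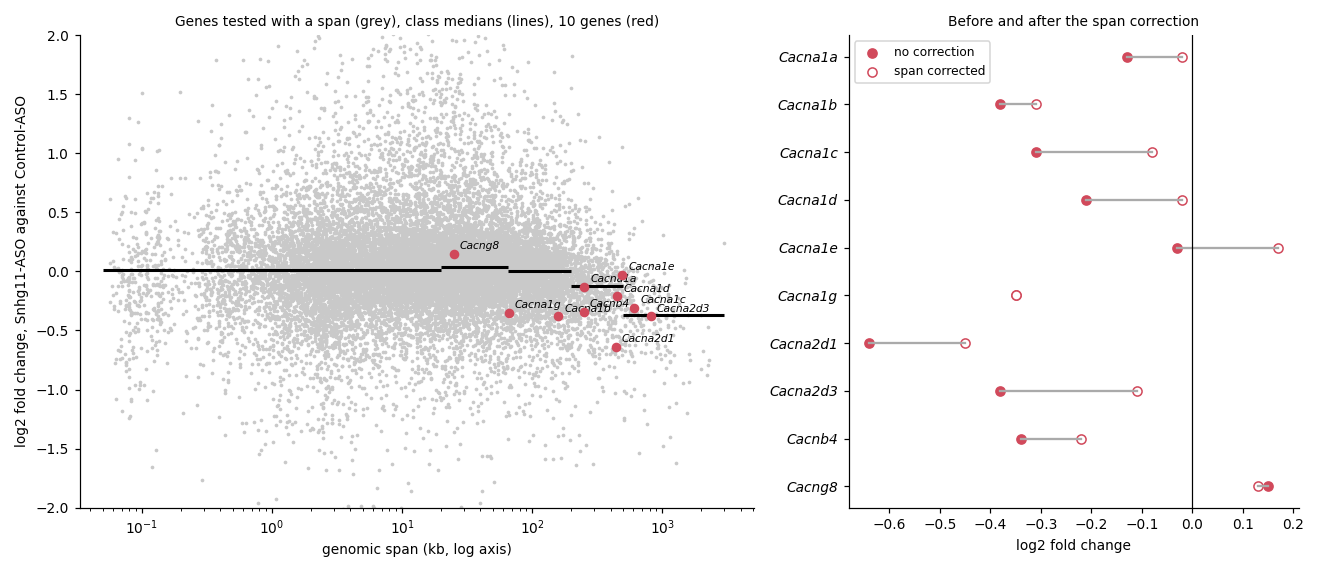
Left, log2 fold change against genomic span (kb, log axis) for genes tested (grey; 131 genes beyond 2 in either direction are not drawn), the median of each span class (black lines) and the 10 calcium channel genes (red). Right, their log2 fold changes before and after the span offset: Cacna2d1 stays the lowest at -0.45 and Cacna1e turns to 0.17.

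Markers of granule cells, pyramidal cells and interneurons were present in every sample, and no marker gene of 10 cell type lists was at 0. Summed pan-neuronal markers ran from 5407 to 5731 CPM in Control-ASO and from 4607 to 5642 CPM in Snhg11-ASO samples, with 8 of 9 genes lower. Summed interneuron markers ran from 438 to 482 and from 366 to 427 CPM, apart between groups and with 7 of 8 genes lower. Summed granule cell markers overlapped, at 371 to 465 and 425 to 507 CPM, as did those of pyramidal cells, at 328 to 400 and 319 to 406 CPM. By gene, 5 granule cell markers were lower and 4 higher, with a median log2 fold change of -0.02. Of the 7 pyramidal cell markers 5 were higher and 2 lower, with a median of 0.39. Summed markers of thalamus, astrocytes, oligodendrocytes, microglia and endothelium overlapped between the groups. Of the 7 thalamus markers 4 were higher and 3 lower, and Prkcd was apart (19.2, 21.4 and 17.6 against 31.2, 35.0 and 32.5 CPM). Snhg11-ASO replicate 1 was the lowest sample for microglia (135 against 251 to 462 CPM) and astrocytes (3987 against 4364 to 6584 CPM). It was not the lowest for oligodendrocytes (1614 CPM, against 1482 CPM in Control-ASO replicate 1). Choroid plexus markers varied most, with sums of 1912, 37.9 and 1234 CPM for Control-ASO and of 1301, 126 and 70.1 CPM for Snhg11-ASO, in the order of the replicate numbers. As a percent of the summed pan-neuronal markers of the same library, Cacna2d1 was at 4.19%, 4.40% and 4.04% in the controls and 2.70%, 2.95% and 3.06% in the knockdown samples, and Cacna2d3 at 2.07%, 2.32% and 2.02% and 1.81%, 1.82% and 1.66%. Both stayed apart on this scale, and Cacnb4 did not. As a percent of summed interneuron markers Cacna2d1 was also lower without overlap (47.1%, 52.8% and 52.8% against 31.0%, 45.4% and 37.5%), whereas Cacna2d3 and Cacnb4 overlapped and Cacng8 was higher without overlap. The part of interneuron and other cell type markers in the other results was not tested.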

How the data were processed

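Total RNA of the dorsal hippocampus was depleted of ribosomal RNA and sequenced as stranded paired-end libraries. Per the labels and the study's methods, the authors aligned reads to mm10 (GRCm38) with STAR 2.5.2a. The deposited values are raw counts per gene as STAR writes them, although the methods name Rsubread for counting, with no normalization or pooling. Summary lines that name no gene held 43.47% to 51.38% of read pairs and were left out. Reads shared by several genes or places are not counted.

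Here reverse-strand counts were used (96.22% to 96.76% of stranded gene counts). Gene models came from GENCODE M21, which matched 55141 identifiers. Genes were filtered with filterByExpr (minimum count 10), scaled by TMM and tested with edgeR 4.0.16 (quasi-likelihood, no covariates) in R 4.3.3, with Benjamini-Hochberg adjustment at 0.05. edgeR estimated a biological coefficient of variation of 0.266 (prior degrees of freedom 2.99). CPM are counts per 1e6 of the TMM-scaled library. Standard errors are the fold change over the square root of F. The method was tested on simulated counts. The study removed a Snhg11-ASO sample that it does not name, so all 3 were kept, and fits that omit each sample were added as alternatives. Other alternatives were DESeq2 1.42.0, limma-voom (limma 3.58.1), a robust fit, other scalings and filters, counts of both strands, offsets for genomic span or GC content, and the replicate number as a block. Samples that share a replicate number departed from their group means together (correlations 0.297, 0.179 and 0.103 for numbers 1, 2 and 3). Pairs by replicate number were therefore used, but only in the block alternatives and in the pair counts of the α1 genes. The edgeR fit with no covariates had no pairs. This pairing rests on the values alone, and the sample most like Control-ASO replicate 2 in these deviations was Snhg11-ASO replicate 3.

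The 10 genes and all lists were chosen with earlier results of these data known, and the p-values measure the spread between samples, each from a different mouse as far as the methods tell. Genes named were the 10, Snhg11, family genes past the filter, partners at an unadjusted p under 0.05, genes inside a member on its strand with a mean of at least 30 counts, and the 5 genes of most similar profile. Ddx3y and Xist were read to check the sex of the samples.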

Additional observations from a re-analysis of the deposited data

How the results depend on the processing

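The 10 genes were refitted under 22 alternatives. Of these 220 log2 fold changes, 209 kept their sign and their side of the threshold, 4 passed the threshold in DESeq2 (Cacna2d1 each time) and 7 changed sign. Cacna1e was positive with span offsets (0.17), with span offsets and the block (0.166), without Control-ASO replicate 1 (0.0088) and without Snhg11-ASO replicate 3 in edgeR (0.0692) and DESeq2 (0.0719). Cacna1a was positive without Snhg11-ASO replicate 3 (0.0285 in edgeR, 0.0311 in DESeq2). With 1 sample left out in edgeR, Cacna1e ran from -0.117 to 0.0692 and Cacna1a from -0.299 to 0.0285. The number of the 10 called was 0 in edgeR and limma-voom and 1 in DESeq2, with all samples and without each Snhg11-ASO sample. At an unadjusted p under 0.05 there were 4 of the 10 with no filter on low counts (Cacna1b and Cacnb4 were added) and 1 with span offsets. Those lower without overlap were 1 with span offsets (Cacna2d1), and 3 to 5 with 1 sample left out, 5 without Control-ASO replicate 3 (Cacna1b and Cacna1d were added). With all samples, Cacna1b was added with no filter on low counts, upper-quartile scaling or counts of both strands. With GC offsets it was added and Cacnb4 was lost. The median of the 10 was -0.0963 with span offsets, -0.0889 with span offsets and the block, and from -0.356 to -0.0878 with 1 sample left out.

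With the replicate number as a block, alone, with span offsets or with GC offsets, 4 other family genes had an unadjusted p under 0.05 in place of 2, and the pairing changed no call of the 10. With 1 sample left out this count ran from 1 to 5 (1 without replicate 3 of either group; 4 when Control-ASO replicate 2 or Snhg11-ASO replicate 1 was omitted, and 5 in DESeq2 without the latter), and that of the partner genes from 3 to 6. The causes of these shifts were not tested. How far depth or the number of animals, 3 per group, limits these counts was not tested.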

Other observations

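The genes whose level followed the 10 calcium channel genes most closely were found by the root mean square difference between each gene's centred log2 CPM over the 6 samples and the median profile of the 10, among 9803 genes of at least 10 CPM. They were Nisch (0.0289), Lrp8, a receptor for reelin (0.0295), Dnmt3a, a DNA methyltransferase (0.0336), Ralgapa2 (0.0399) and Gga1 (0.0413). The median profile itself was 0.251, 0.0654 and -0.04 in Control-ASO replicates 1, 2 and 3 and 0.061, -0.0147 and -0.242 in Snhg11-ASO replicates 1, 2 and 3. It was highest in replicate 1 and lowest in replicate 3 of each group, and with only 6 samples many genes can share such a profile.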
